A study of Homo sapiens with 6 samples.

Results

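The HOX genes of the HOXA, HOXB, HOXC and HOXD clusters were examined in U87 cells, an established human glioma cell line. Members were all protein-coding genes whose symbol is HOX followed by A, B, C or D and a number, whether expressed or not. This rule took 39 of the 57905 genes in the files, and it used no measured value. Total RNA had been sequenced in 6 libraries. The 3 control libraries came from wild-type U87 cells whose treatment label reads no. The 3 libraries labelled siRBM47 came from cells labelled as treated with siRBM47, an siRNA aimed at the RNA-binding protein RBM47. The treatment protocol, 100 pmol of siRNA with a lipid reagent, is attached to all samples, and the labels do not say what the control cells received. Both groups were grown in the same serum-containing medium, and nothing states that replicates came from separate cultures. The p-values therefore reflect only how far these 6 libraries scatter, and that scatter may be technical.

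HOX genes encode transcription factors with a DNA-binding homeodomain, and they assign identity along the head-to-tail axis of the embryo. In each cluster the genes stand in the order in which they are used along that axis, from the anterior end (low paralog numbers) to the posterior end (high numbers), and genes with the same number in different clusters are paralogs. Many HOX proteins bind DNA together with cofactors of the PBX, MEIS and PKNOX families. Trithorax proteins keep active HOX genes on and Polycomb proteins keep the others silent. The forebrain and adult astrocytes largely lack HOX expression, while gliomas often express some of these genes.

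Total counts per library ran from 15575297 to 18128549, and 14578 genes passed the filter on low counts. Control replicate 3 stood apart from the other controls. Its log2 levels correlated across genes at 0.941 with control replicate 1 and at 0.95 with control replicate 2. Those 2 correlated at 0.988 (genes are not independent replicates). Control replicate 3 was closer to siRBM47 replicates 1, 2 and 3, where the coefficients were 0.956, 0.959 and 0.962. Against the same 3 replicates, control replicate 1 had 0.949, 0.963 and 0.953, and control replicate 2 had 0.952, 0.965 and 0.959. Because control replicate 3 stood apart from the other controls, tests between the 2 groups were also run without it. RBM47 was counted 24, 30 and 108 times in control and 64, 48 and 40 times in siRBM47, a log2 difference of -0.11 (SE 0.50, edgeR adjusted p = 0.942), so a fall of the targeted gene was not detected. Without control replicate 3 that difference was 0.76 (adjusted p = 0.152). Directions below are therefore between the libraries as labelled. Against the labelled cell type, 5 of 6 mesenchymal markers and 2 of 10 glial and neural stem markers reached 1 FPKM in all 6 libraries, and GFAP stayed between 0.0552 and 0.241 FPKM. Glial markers with at most 3 counts in every library were AQP4, ALDH1L1, OLIG1 and SOX10. MTAP and CDKN2B had 0 counts in all 6 libraries, and the neighbouring tumour suppressor CDKN2A had 9 in control replicate 1 and 0 in the others. Of the other marker lists, 0 of 7 immune, 0 of 4 endothelial, 1 of 6 epithelial (KRT8) and 1 of 6 neuronal genes (SNAP25) reached 1 FPKM in all libraries.

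In these cells 11 of the 38 HOX genes described here were on, defined as at least 1 FPKM in every library of a group, and the same 11 were on in control and in siRBM47. FPKM is the deposited level, scaled for gene length and library depth, and it is the scale used here to compare genes. In bulk RNA, fewer cells with a transcript and less of it per cell cannot be told apart. The genes on were HOXA5, HOXB2, HOXB3, HOXB4 and HOXB7, HOXC6 and HOXC10, and HOXD8, HOXD9, HOXD10 and HOXD13. By position, 2 of 7 anterior genes (numbers 1 to 3), 5 of 15 central genes (4 to 8) and 4 of 16 posterior genes (9 to 13) were on. The anterior genes on were in HOXB, and the posterior ones in HOXC and HOXD. No cluster was on or off as a whole. The count depends on the limit: at 0.5 FPKM 13 genes were on in control and 14 in siRBM47, with HOXA11 on in control only and HOXA3 and HOXC8 in siRBM47 only. At 1 TPM, 17 were on in control and 16 in siRBM47, of which 15 were shared. HOXA3, HOXC8 and HOXD11 reached 1 FPKM in some library without being on.

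**Figure D1:**
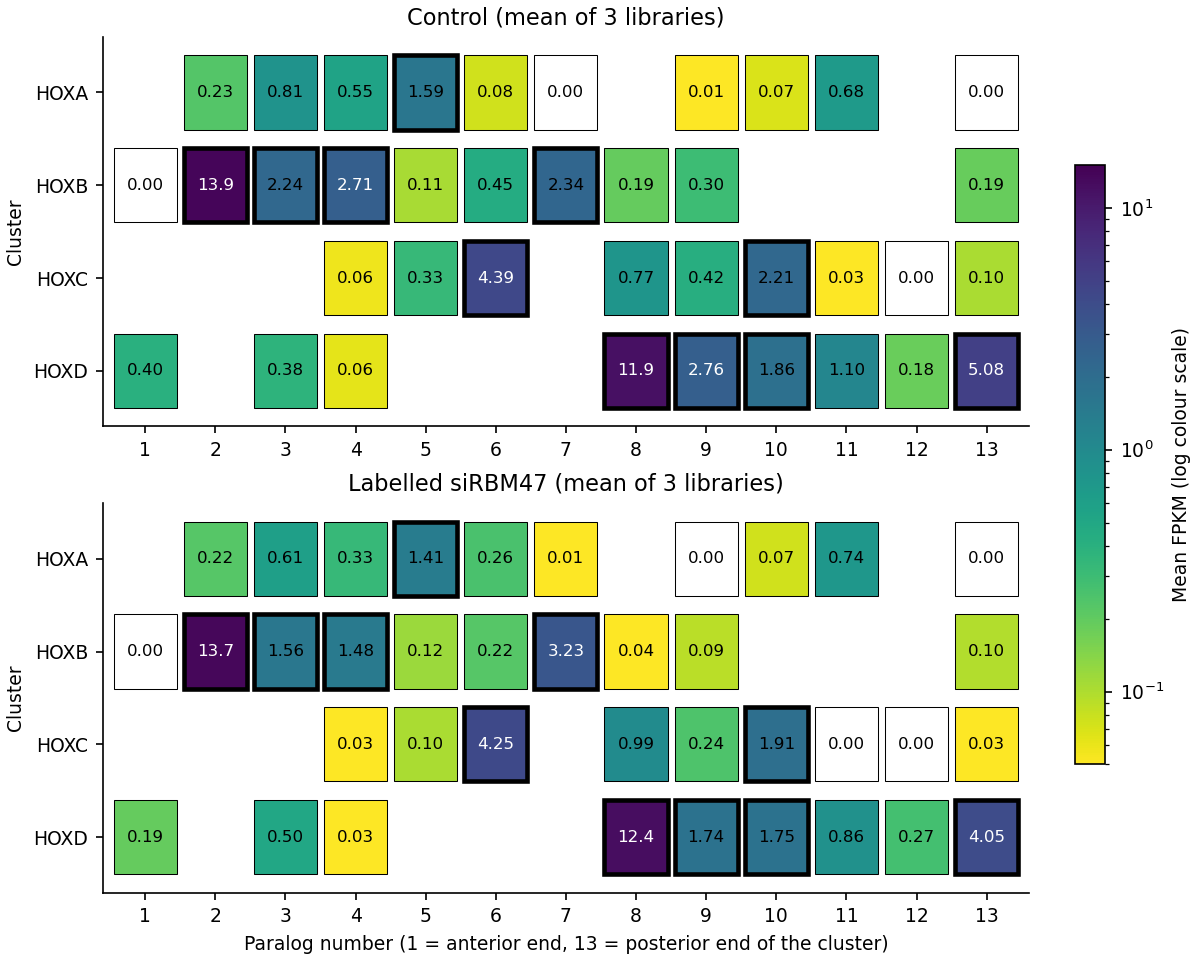
Mean FPKM of each HOX gene by cluster (rows) and paralog number (columns), in the 3 control libraries (top) and the 3 labelled siRBM47 (bottom). Colour is on a log scale that treats means under 0.05 as 0.05, white marks a mean of 0, empty places hold no gene described here, and thick borders mark the 11 genes on, the same in both panels.

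HOXB2 had the highest level of all HOX genes in control. It encodes an anterior HOX protein known for patterning the hindbrain, and lies on GRCh38 chromosome 17 from 48540894 to 48544989 on the minus strand (ENSG00000173917). Its level was 12.9, 13.8 and 14.9 FPKM in control replicates 1 to 3 and 12.5, 16.6 and 12.0 FPKM in siRBM47 replicates 1 to 3. The groups overlapped, and the highest value was siRBM47 replicate 2. Its mean over all libraries lay above that of 77.3% of the tested genes. HOXB3 and HOXB4, the next genes of the cluster towards the posterior end, were also on. HOXB3 was at 2.49, 2.68 and 1.56 FPKM in control and at 1.92, 1.60 and 1.15 in siRBM47. HOXB4, best known for its role in blood stem cells, was at 3.15, 2.78 and 2.21 FPKM in control and at 1.10, 1.78 and 1.54 in siRBM47. Each HOXB4 control library lay above each siRBM47 library, whereas for HOXB3 control replicate 3 fell within the siRBM47 range.

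HOXB7 was separated from these by HOXB5 and HOXB6, which were not on. HOXB7 was at 3.09, 2.44 and 1.48 FPKM in control and at 2.94, 3.04 and 3.71 in siRBM47, with control replicate 3 the lowest library. HOXB5 stayed between 0.027 and 0.221 FPKM over the 6 libraries. HOXB6 was at 0.445, 0.462 and 0.449 FPKM in control and at 0.284, 0.221 and 0.164 in siRBM47, so its groups did not overlap, from 12 to 35 counts per library. At the ends of the cluster HOXB1 had 0 counts in all 6 libraries, and HOXB8, HOXB9 and HOXB13 had at most 27 counts in any library.

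HOXD8 was the second most abundant HOX gene. It lies on chromosome 2 from 176129694 to 176132695 on the plus strand (ENSG00000175879), and none of its exon length is shared with another gene. Its level was 10.9, 12.8 and 11.9 FPKM in control and 13.3, 11.7 and 12.2 in siRBM47, above that of 74.9% of the tested genes on average. The groups overlapped, and the libraries were close to each other. HOXD9 (chromosome 2, 176122720 to 176124937) was at 3.47, 2.79 and 2.01 FPKM in control and at 1.76, 1.77 and 1.71 in siRBM47. Here the lowest control library, replicate 3, still lay above the highest siRBM47 library. HOXD10, which acts in spinal cord and limb patterning, was at 2.10, 1.84 and 1.65 FPKM in control and at 1.64, 2.30 and 1.33 in siRBM47, with overlapping groups. HOXD13, which patterns the digits, was the third most abundant HOX gene in control. It was at 2.79, 5.83 and 6.61 FPKM in control and at 4.26, 3.92 and 3.96 in siRBM47, so the 3 siRBM47 libraries lay inside the range of the controls, in which replicate 1 was lowest.

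HOXD12, next to HOXD13, was near the limit of detection, with 0, 3 and 16 counts in control and 11, 9 and 7 in siRBM47. HOXD11 was at 1.20, 0.801 and 1.29 FPKM in control and at 0.751, 1.01 and 0.831 in siRBM47, on either side of 1 FPKM. At the anterior end HOXD1, HOXD3 and HOXD4 were not on. HOXD4 had at most 3 counts in any library and HOXD3 at most 56. HOXD1 was counted 19, 11 and 10 times in control and 9, 3 and 9 times in siRBM47, so its groups did not overlap, but its counts were too low for it to be tested.

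Promoter sequences of 3 HOXD genes are shown to set an abundant gene (HOXD8) and a posterior gene that was on (HOXD13) beside a low gene next to the latter (HOXD12). They were chosen after the levels were seen, since HOXB2 had no entry in the promoter table. For each gene the first entry listed is shown, and a gene can have more than 1. Each runs from 250 bases before to 50 bases after the RefSeq start on the plus strand of GRCh38.p14. Capitals mark matches on either strand to common core promoter motifs and to motifs of HOX partners. The first are TATAAA, the motif of the TATA-binding protein, GGGCGG, which Sp1 binds, and CCAAT, which NF-Y binds. The others are TGACAG, the core bound by MEIS and PKNOX proteins, and TGATNNAT, a joint site of PBX and HOX proteins.
HOXD13, chr2:176092471-176092770: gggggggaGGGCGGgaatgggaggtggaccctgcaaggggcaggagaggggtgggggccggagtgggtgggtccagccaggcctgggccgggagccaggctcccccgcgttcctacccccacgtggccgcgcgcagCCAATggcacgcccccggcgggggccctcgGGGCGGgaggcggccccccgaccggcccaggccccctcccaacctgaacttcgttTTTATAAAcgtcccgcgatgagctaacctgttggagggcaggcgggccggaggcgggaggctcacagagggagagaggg
HOXD12, chr2:176099545-176099844: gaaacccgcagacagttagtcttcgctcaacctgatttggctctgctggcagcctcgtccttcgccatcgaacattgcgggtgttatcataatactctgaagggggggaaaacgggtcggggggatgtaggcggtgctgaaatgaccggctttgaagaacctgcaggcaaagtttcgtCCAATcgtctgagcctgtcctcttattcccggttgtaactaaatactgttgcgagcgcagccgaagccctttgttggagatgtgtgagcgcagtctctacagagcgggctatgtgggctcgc
HOXD8, chr2:176129455-176129754: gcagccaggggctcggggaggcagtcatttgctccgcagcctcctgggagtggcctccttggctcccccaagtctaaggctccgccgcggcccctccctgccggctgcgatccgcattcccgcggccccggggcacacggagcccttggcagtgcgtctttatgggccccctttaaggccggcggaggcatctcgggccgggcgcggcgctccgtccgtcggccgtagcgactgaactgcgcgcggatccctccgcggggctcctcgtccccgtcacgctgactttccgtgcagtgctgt
The HOXD13 promoter held TATAAA on both strands in overlapping positions that begin 29 and 27 bases before the start, GGGCGG at 2 places and CCAAT at 1. That of HOXD12 held CCAAT once, 72 bases before the start, and that of HOXD8 held none of the searched motifs. The GC content was 74.0% for HOXD13, 54.3% for HOXD12 and 71.7% for HOXD8, with 24, 19 and 34 CpG dinucleotides. The medians were 58.7% and 14 over 35097 promoters of the same length, and 58.0% and 22 over the HOX promoters among them. Among all promoters, matches to TATAAA were in 11.5%, to GGGCGG in 44.9%, to CCAAT in 34.6%, to TGACAG in 15.8% and to TGATNNAT in 7.4%. Of the 27 HOX promoters in the table, which belong to 20 genes, these motifs were found in 5, 13, 18, 4 and 3. A match is a description of letters and not of binding.

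HOXC6 and HOXC10 were the genes on in the HOXC cluster of chromosome 12. HOXC6 was at 5.50, 5.06 and 2.60 FPKM in control and at 4.13, 4.89 and 3.72 in siRBM47, and control replicate 3 was the lowest of the 6 libraries. HOXC10, a posterior gene active in the lumbar region of the embryo, was at 1.64, 2.03 and 2.96 FPKM in control and at 1.68, 2.08 and 1.99 in siRBM47, with control replicate 3 the highest. HOXC8 lay near the limit for being on, at 1.09, 0.745 and 0.481 FPKM in control and at 0.933, 1.08 and 0.943 in siRBM47. Of the others, HOXC12 had 0 counts throughout, HOXC11 and HOXC4 had at most 3 and 4 counts in any library, and HOXC5, HOXC9 and HOXC13 at most 14, 14 and 9.

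In the HOXA cluster on chromosome 7, HOXA5 was on at a low level. HOXA5, known for its part in lung and neck development, was at 1.30, 1.71 and 1.78 FPKM in control and at 1.52, 1.09 and 1.63 in siRBM47. Its groups overlapped, and the lowest value was siRBM47 replicate 2. HOXA3 was at 0.858, 1.10 and 0.462 FPKM in control and at 0.602, 0.706 and 0.531 in siRBM47. The posterior end was the quietest: HOXA13 had 0 counts in all libraries, HOXA9 had 1 count in 1 library, as had HOXA7 in the central part, and HOXA10 had at most 9. HOXA11 was the exception, with 19 to 40 counts per library and 0.459 to 0.957 FPKM. HOXA2, HOXA4 and HOXA6 had at most 14, 20 and 15 counts.

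**Figure D2:**
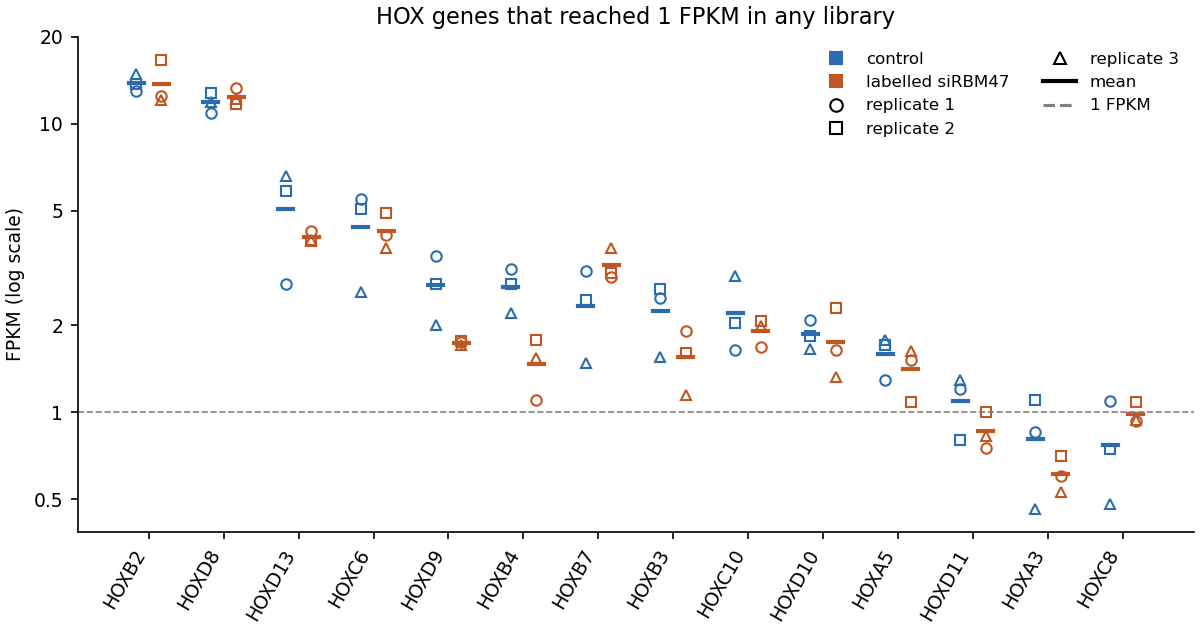
FPKM (log axis) of the 14 HOX genes that reached 1 FPKM in any library, ordered by control mean, with each library as a point, control in blue and the libraries labelled siRBM47 in orange. HOXB2 and HOXD8 lie above 10 FPKM in all 6 libraries, and HOXD9 and HOXB4 are the genes whose groups are apart.

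Ordered by control mean, 12 of the genes described had a mean of at least 1 FPKM. Of the 11 pairs of neighbours in that order, 3 had control ranges that did not overlap and 8 overlapped. The first step was HOXB2 at 13.9 ± 0.979 FPKM over HOXD8 at 11.9 ± 0.928, and the next was HOXD8 over HOXD13 at 5.08 ± 2.02 (SD, n = 3). HOXC6 followed at 4.39 ± 1.56. From HOXD13 down to HOXA5 no neighbours were apart, and HOXA5 at 1.59 ± 0.258 lay above HOXD11 at 1.10 ± 0.260 (SD, n = 3). In siRBM47 the ranges of HOXB2 and HOXD8 overlapped. The level of HOXB2, though not its first place in control, depends on the length it is given. The count and FPKM imply a gene 1.472 times as long as its exons in GENCODE 29. Per GENCODE 29 length its control mean was 20.6 on the same kind of scale, against 11.9 for HOXD8. For the other genes on, the length ratio ran from 0.993 to 1.237. Among tested genes that were not on it reached 1.774 in HOXC8, 1.652 in HOXB6 and 1.556 in HOXD3. With GENCODE 29 lengths HOXC8 was on in siRBM47 and not in control, and the other calls stayed as they were.

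HOX genes overlap each other and antisense RNAs, and the library kit does not mark the strand, so counts of overlapping genes are uncertain. In GENCODE 29, 12 of the 38 genes shared over 20% of their exon length with another gene, and 0 of these 12 were on. The shares were 80.5% for HOXD4, 74.1% for HOXD3, 62.5% for HOXA7, 59.9% for HOXC5 and 58.1% for HOXD1. Among the genes on, the share reached 17.1% in HOXB4, which overlaps HOXB3, and 5 of the 11 shared no exon sequence. The low counts of heavily overlapped genes go together with this overlap, and its part in them was not tested. Another 15 genes with at most 20% overlap were also not on, among them HOXA13, HOXB1 and HOXC12 with 0 counts, which allow up to 3 counts per library. The limit of 3 counts equals 0.165 to 0.193 CPM (counts scaled to library size) and covers counting error only.

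Between control and siRBM47, no HOX gene passed the threshold. The filter on low counts kept 18 of the 38 members described, namely the 11 genes on and HOXA3, HOXA4, HOXA11, HOXB6, HOXC8, HOXD3 and HOXD11. By the edgeR quasi-likelihood test at an adjusted p under 0.05 over all 14578 genes, 0 of these 18 were called, where 0.220% of all tested genes were. DESeq2 and limma-voom also called 0, where they called 4.42% and 0.233% of all tested genes, and 3 members had an unadjusted p under 0.05 in edgeR, as had 16.1% of all tested genes. Of the 18 log2 differences 13 were negative and 5 positive, with a median of -0.20 beside -0.01 over all tested genes. The 20 untested members had at most 27 counts in any library, and without the filter on low counts edgeR tested 35 of the 38 members and called 0.

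The members with an unadjusted p under 0.05 were HOXB4, HOXB6 and HOXD9. In CPM, HOXB4 stood at 11.9, 10.5 and 8.46 in the controls against 4.14, 6.80 and 5.81 in siRBM47, a log2 difference of -0.88 (SE 0.27, 95% interval -1.49 to -0.27, edgeR adjusted p = 0.169). HOXB6 stood at 1.83, 1.90 and 1.86 CPM in the controls against 1.16, 0.914 and 0.670 in siRBM47 (log2 difference -1.02, SE 0.39, 95% interval -1.89 to -0.16, edgeR adjusted p = 0.245). HOXD9 stood at 8.46, 6.79 and 4.95 CPM in the controls against 4.25, 4.34 and 4.13 in siRBM47 (log2 difference -0.66, SE 0.28, 95% interval -1.29 to -0.04, edgeR adjusted p = 0.283). Among the tested members, these 3 were the ones in which every siRBM47 library lay below every control library. That is 16.7% of the 18, beside 11.0% of all tested genes with groups apart in this direction. In either direction, groups did not overlap in 22.6% of all tested genes, and 0 tested members were apart as higher. Whether these shares differ was not tested. Of HOXB6 32.9% of the exon length is shared, with HOXB3 on its strand and HOXB-AS3 on the other, so its counts are uncertain.

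For the most abundant members the intervals were narrow. HOXB2 had a log2 difference of -0.02 (SE 0.20) with a 95% interval from a ratio of 0.73 to 1.33. HOXD8 had 0.05 (SE 0.18) with an interval from 0.79 to 1.37. Differences of 2-fold in either direction lay outside these intervals. For HOXC6, at -0.05 (SE 0.29), the interval was 0.61 to 1.52, and for HOXD13, at -0.34 (SE 0.31), it was 0.48 to 1.29. The 5 positive differences were those of HOXB7 (0.46, SE 0.33), HOXD3 (0.41, SE 0.38), HOXC8 (0.35, SE 0.36), HOXA11 (0.10, SE 0.40) and HOXD8. Adjusted p over the 18 members ran from 0.169 for HOXB4 to 0.966 for HOXB2 (edgeR).

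Control replicate 3 decided the count. Without it, 3 of the 18 members passed in edgeR, all lower in siRBM47, where 21.4% of all tested genes passed and 11.3% passed as lower. They were HOXB4 (log2 difference -1.01, SE 0.25, edgeR adjusted p = 0.0117), HOXD9 (-0.84, SE 0.25, edgeR adjusted p = 0.0271) and HOXB3 (-0.74, SE 0.22, edgeR adjusted p = 0.0319). HOXB6 did not pass (-1.02, SE 0.43, edgeR adjusted p = 0.103). Groups did not overlap in 7 members without this library, all lower, against 54.2% of all tested genes in either direction and 27.1% as lower. HOXB3 and HOXB4 share exon sequence, so they may not be separate measurements in full, depending on how reads in that sequence were counted. That fit rests on control replicates 1 and 2, the most alike pair of libraries within a group. Against the mean of its group mates, each library had a median log2 difference over the tested members of -0.32 (control replicate 3) to 0.25 (control replicate 1 and siRBM47 replicate 2), beside -0.03 to 0.03 over all tested genes. Summed mesenchymal markers ran from 1110 to 1320 FPKM in control and 1250 to 1640 in siRBM47, and summed glial markers from 9.31 to 14.2 and 8.74 to 11.4. VIM, the largest part of the mesenchymal sum, was at 987, 769 and 560 FPKM in control and 920, 778 and 677 in siRBM47. COL1A1 was at 58.4, 57.7 and 178 FPKM in control and 174, 279 and 171 in siRBM47. COL1A2 was at 88.1, 91 and 274 FPKM in control and 226, 235 and 188 in siRBM47. In these 2 collagen genes control replicate 3 was nearer to the siRBM47 libraries than to the other controls. Summed neuronal markers, mostly SNAP25, ran from 4.45 to 5.49 FPKM in control and 5.94 to 9.24 in siRBM47, without overlap, and summed endothelial markers, mostly KDR, from 1.86 to 2.64 and 1.37 to 1.74. The part of these in the HOX differences was not tested.

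**Figure D3:**
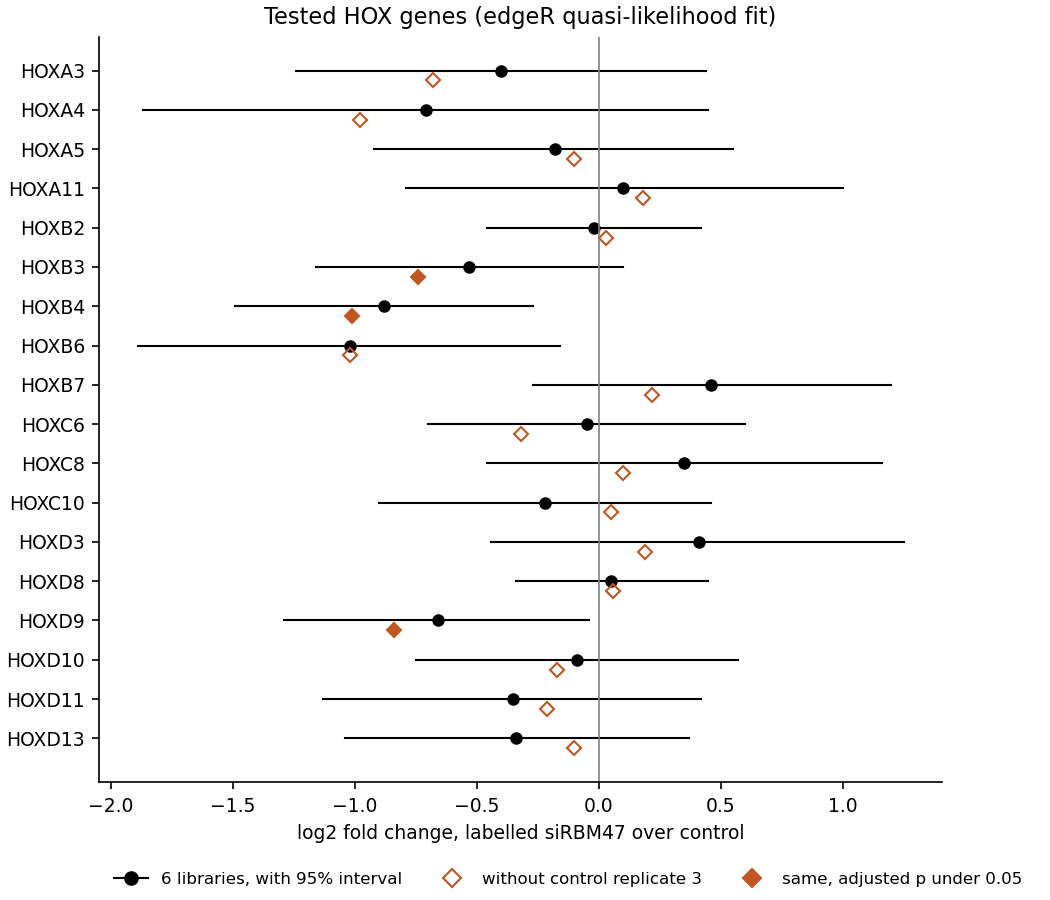
log2 fold change, libraries labelled siRBM47 over control, of the 18 tested HOX genes. Black points and lines give the fit on 6 libraries with 95% intervals, of which 0 passed after adjustment, and diamonds the fit without control replicate 3, filled for HOXB3, HOXB4 and HOXD9, which passed in that fit.

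Summed over the 38 members described, the level was 58.4 ± 2.47 FPKM in control and 53.55 ± 3.57 in siRBM47 (SD, n = 3). The libraries were at 57.51, 61.2 and 56.5 FPKM in control and at 53.41, 57.18 and 50.05 in siRBM47. The ranges overlapped, with siRBM47 replicate 2 just above control replicate 3. HOXD and HOXB held most of the sum, at 40.6% ± 2.8 and 38.3% ± 0.802 in control and 40.8% ± 2.62 and 38.2% ± 2.9 in siRBM47. HOXC held 14.2% ± 2.6 and 14.1% ± 0.8, and HOXA 6.86% ± 0.573 and 6.85% ± 1.28 (SD, n = 3 each). The means of these shares differed between groups by less than the spread between libraries. HOXB2 and HOXD8 together made up 41.5%, 43.4% and 47.4% of the sum in control and 48.3%, 49.4% and 48.4% in siRBM47. All 3 siRBM47 libraries were above the controls in this share, a pair of genes chosen after their levels were seen.

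**Figure D4:**
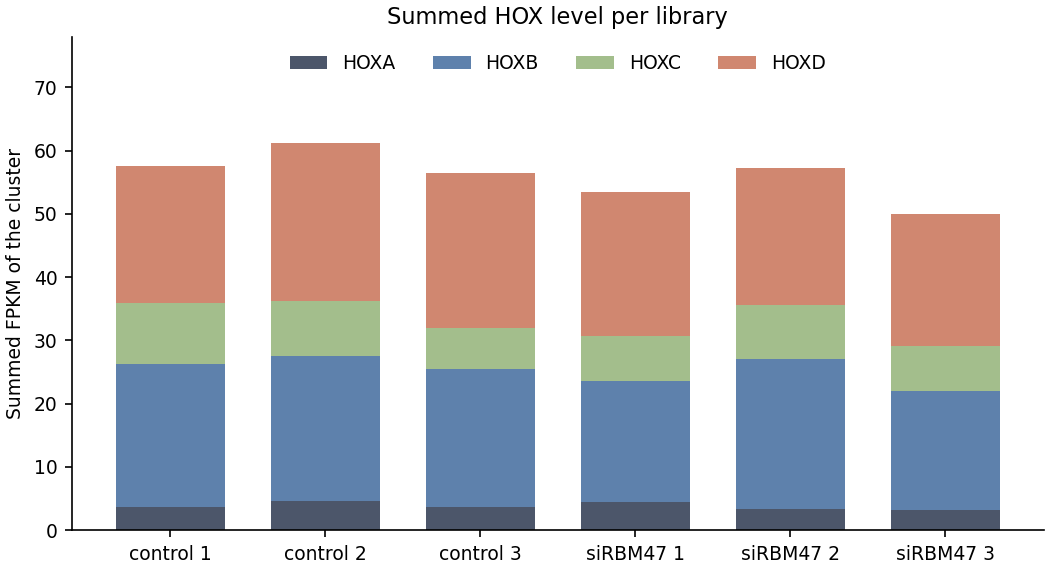
Summed FPKM of the 38 HOX genes described in each of the 6 libraries, stacked by cluster. HOXB and HOXD make up the larger part of every bar, and the sums run from 50.05 to 61.2 FPKM.

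Other RNAs transcribed within the clusters, mostly long noncoding RNAs, were mostly low. The 21 listed genes include PRAC1 and PRAC2, which are annotated as protein-coding and were not tested. Of the 21 listed genes, 6 were tested and 0 passed in edgeR. An unadjusted p under 0.05 was found for 2 of them, beside 16.1% of all tested genes. Groups did not overlap in 33.3% of these 6, beside 22.6% of all tested genes in either direction. HOTAIRM1, a long RNA of the HOXA cluster, was counted 103, 139 and 147 times in control and 84, 59 and 75 times in siRBM47. It was at 7.60 ± 0.549 and 4.07 ± 0.643 CPM (SD, n = 3; log2 difference -0.90, SE 0.25, edgeR adjusted p = 0.142), with groups that did not overlap. DESeq2 called it (adjusted p = 0.0473), as did edgeR without control replicate 3 (adjusted p = 0.0265). Of its exon length 44.9% is shared, nearly all with small entries on its own strand, so its counts are uncertain. HAGLR, which runs antisense to HOXD1 and HOXD3, was counted 162, 210 and 247 times in control and 355, 282 and 269 times in siRBM47. It was at 12.1 ± 1.09 and 16.9 ± 2.39 CPM (log2 difference 0.49, SE 0.21, edgeR adjusted p = 0.3), again without overlap. HOXD-AS2 was at 3.92 ± 1.70 and 3.55 ± 0.709 CPM, and HOXA-AS2, HOXA11-AS and HOXB-AS1 were at 0.452 to 1.05 CPM in both groups. HOTAIR, an antisense RNA of the HOXC cluster, had 0 to 9 counts per library, and HOTTIP at most 1. The microRNA genes MIR10B, MIR196A1, MIR196A2 and MIR615 had 0 counts in all 6 libraries, and libraries of this kind do not measure mature microRNAs.

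Of the TALE cofactors, which bind DNA with HOX proteins, 8 of 9 listed genes were tested. 0 passed in edgeR, 3 had an unadjusted p under 0.05, beside 16.1% of all tested genes, and the median log2 difference was 0.07. PKNOX1 averaged 28.3 ± 0.706 CPM over the controls and 41.4 ± 2.41 over siRBM47 (SD, n = 3; log2 difference 0.55, SE 0.17, edgeR adjusted p = 0.172). MEIS2 was at 44.2 ± 4.10 and 61.4 ± 11.6 CPM (log2 difference 0.47, SE 0.20, edgeR adjusted p = 0.282). In both genes the groups did not overlap, as in 37.5% of the 8 tested TALE genes and 22.6% of all tested genes. Both passed without control replicate 3 (edgeR adjusted p = 0.0327 and 0.0474). In that fit 2 TALE genes passed as higher and 1, PBX2, as lower, where 21.4% of all tested genes passed in either direction.

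Of 28 listed Polycomb genes, 27 were matched by symbol (PCGF2 was not) and all 27 were tested. Of these 27, 0 passed in edgeR and 7 had an unadjusted p under 0.05, beside 16.1% of all tested genes. Whether these shares differ was not tested. The median log2 difference was -0.08. PHF1, an accessory protein of the methyltransferase complex PRC2, averaged 77.2 ± 17.5 CPM over the controls and 37.8 ± 6.10 over siRBM47 (SD, n = 3; log2 difference -1.03, SE 0.23, edgeR adjusted p = 0.0966). DESeq2 called PHF1 (adjusted p = 0.00469). JARID2, another PRC2 accessory protein, was at 42.4 ± 0.980 and 27.9 ± 2.96 CPM (log2 difference -0.60, SE 0.18, edgeR adjusted p = 0.155). Without control replicate 3, 8 Polycomb genes passed as lower and 1 as higher, against 11.3% and 10.1% of all tested genes. Among them were PHF1 (log2 difference -1.21, edgeR adjusted p = 0.000429) and JARID2 (-0.58, edgeR adjusted p = 0.027).

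Among trithorax genes and other activators of HOX transcription 16 of 21 were tested. 0 passed in edgeR, 3 had an unadjusted p under 0.05, beside 16.1% of all tested genes, and the median was -0.06. The histone demethylase KDM6B averaged 37.7 ± 1.93 CPM over the controls and 24.0 ± 7.25 over siRBM47 (SD, n = 3; log2 difference -0.65, SE 0.23, edgeR adjusted p = 0.222). The methyltransferase KMT2D averaged 34.1 ± 11.2 and 20.2 ± 4.25 CPM (log2 difference -0.76, SE 0.28, edgeR adjusted p = 0.239). Without control replicate 3, 3 trithorax genes passed as lower and 1 as higher, against 11.3% and 10.1% of all tested genes. Among those lower were KDM6B (log2 difference -0.69, edgeR adjusted p = 0.0387) and KMT2D (-1.01, edgeR adjusted p = 0.00312). In the retinoic acid pathway, which induces HOX genes in the embryo, 12 of 17 genes described were tested, 0 passed in edgeR and 5 had an unadjusted p under 0.05, beside 16.1% of all tested genes, with a median of -0.22. Without control replicate 3, 5 passed as lower and 1 as higher, against 11.3% and 10.1% of all tested genes. ALDH1A3, which makes retinoic acid, was counted 3801, 4081 and 678 times in control and 866, 633 and 506 times in siRBM47, so control replicate 3 lay with the siRBM47 libraries (log2 difference -2.23, SE 0.58, edgeR adjusted p = 0.12). Without that library the difference was -2.72 (edgeR adjusted p = 2.08e-06). DHRS3, which turns retinal back to retinol, also had its 2 highest values in control replicates 1 and 2, at 1909, 1992 and 522 counts in control and 476, 582 and 493 in siRBM47 (log2 difference -1.64, SE 0.46, edgeR adjusted p = 0.142). DESeq2 called DHRS3 (adjusted p = 0.0091), as did edgeR without control replicate 3 (-2.07, adjusted p = 4.95e-06).

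Of the genes that flank the clusters 20 were matched, since the listed symbol KIAA1715 is an older name of the listed LNPK, and 15 were tested. Of these 0 passed in edgeR, 2 had an unadjusted p under 0.05, beside 16.1% of all tested genes, and the median was 0.05. Without control replicate 3, 2 passed as higher and 3 as lower, against 10.1% and 11.3% of all tested genes. CBX5, beyond the HOXC cluster, averaged 162 ± 30.3 CPM over the controls and 221 ± 20.6 over siRBM47 (SD, n = 3), and did not pass without control replicate 3 (edgeR adjusted p = 0.148). NFE2, on the same side of the cluster, was counted 59, 48 and 441 times in control and 55, 68 and 60 times in siRBM47, so 1 library held its high value. Without control replicate 3 the log2 difference of NFE2 went from -1.56 to 0.03.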

How the data were processed

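Total RNA libraries of U87 cells were sequenced, 3 per group, grouped and numbered by their titles. The submitters' processing notes name HISAT2 2.0.5, featureCounts 1.5.0-p3 and the hg38 build. For the annotation release, the strand setting and the FPKM tool, the sources used here give nothing. The deposited files hold raw counts per gene and, beside them, FPKM made by the authors, per the file headers. FPKM were used for levels and counts for tests. Symbols came from a table of identifiers, positions and overlaps from GENCODE 29 on GRCh38, and promoters from RefSeq (GRCh38.p14), with entries for 20 of the 39 genes.

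After filterByExpr (minimum count 10), genes were tested with edgeR 4.0.16 under R 4.3.3 (quasi-likelihood, TMM factors, no block), with Benjamini-Hochberg adjustment over 14578 genes and a threshold of 0.05. The fit was tested on simulated data. Standard errors are derived from the F statistic. Leaving out a library kept the 14578 genes tested. Alternatives were RLE and upper-quartile factors, DESeq2 1.42.0, limma-voom (limma 3.58.1), no filter, a minimum count of 50, a replicate block, each library left out, and other definitions of an expressed gene. Members and lists were chosen with earlier results of these data known. Of the members 1, and of the lists 1 gene, is not reported here and enters no count or sum over them. The text otherwise names every member, every tested long RNA of the clusters and, from the other lists, the 2 genes with the smallest p.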

Additional observations from a re-analysis of the deposited data

How the results depend on the processing

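With each library left out, the number of HOX genes called by edgeR ran from 0 to 3 and that of all genes from 0 to 3117. The 3 were found without control replicate 3. For all genes the count was 32 with 6 libraries, 19 and 12 when control replicate 1 or 2 was left out, and 0 for each siRBM47 library left out, where 1445 to 1816 genes had an unadjusted p under 0.05. DESeq2 called 644 genes and edgeR without a filter on low counts 804. The number of HOX genes called stayed at 0 under RLE and upper-quartile factors, DESeq2, limma-voom, no filter and a minimum count of 50.

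The replicate block left 0 HOX genes called and gave 39 of all genes. Same-numbered libraries correlated in their deviations at -0.036, 0.127 and 0.116, so the numbers were not taken as pairs. With the block the log2 difference of HOXC6 was 0.01 and that of RBM47 was 0.12, against -0.05 and -0.11 without it, and limma-voom gave 0.02 and 0.10. Signs of some differences turned when single libraries were left out. Ranges were -0.12 to 0.36 for HOXA11, -0.18 to 0.06 for HOXB2 and -0.32 to 0.15 for HOXC6. They were -0.39 to 0.05 for HOXC10 and -0.33 to 0.08 for HOXD10. Outside the HOX genes they were -0.71 to 0.10 for HOXB-AS1, -0.44 to 0.17 for HOXD-AS2 and -0.39 to 0.76 for RBM47. NFE2, at -1.56 with 6 libraries, ran from -1.99 to 0.03. The other 13 tested HOX genes kept their sign in every setting. The cause of these changes was not tested.

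At least 5 FPKM in every library left 2 genes on in each group, and at least 1 TPM gave 17 in control and 16 in siRBM47. Groups did not overlap in 3 of the 18 tested HOX genes, and in 7 without control replicate 3, a setting chosen after seeing the data. From summed counts in place of FPKM the shares in control and siRBM47 were 5.38% and 5.29% for HOXA, 46.5% and 44.5% for HOXB, and 34% and 35.4% for HOXD. With GENCODE 29 lengths, also chosen after seeing the data, they were 5.91% and 5.87%, 43.7% and 43.8%, and 37.1% and 36.9%. Without genes overlapped by over 20%, HOXA held 4.83% and 4.51%, and HOXB 40.4% in control. HOXB thus passed HOXD in both groups by counts and by GENCODE 29 length.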
